A study of Mus musculus with 2 samples.

Results

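BMP and TGF-beta ligands signal through pairs of type I and type II receptor kinases on the cell surface, which phosphorylate SMAD proteins that then act on genes in the nucleus. In endothelial cells, the lining of blood vessels, the type I receptor ALK1 (Acvrl1) works with the type II receptor Bmpr2 and the co-receptor endoglin (Eng) in BMP signalling, and Tgfbr1 and Tgfbr2 form the TGF-beta receptor. The pathway induces its own brakes, the inhibitory SMADs Smad6 and Smad7, and the ID genes. ID proteins have a helix-loop-helix but no DNA-binding region, and they hold back basic helix-loop-helix (bHLH) factors by taking up their E protein partners. NeuroD1 is such a bHLH factor.

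The account covers 10 genes of this pathway, chosen by name, of 53465 genes in the deposited table: 5 receptors (Eng, Acvrl1, Bmpr2, Tgfbr1, Tgfbr2), 2 inhibitory SMADs (Smad6, Smad7) and 3 ID genes (Id1, Id2, Id3). All 10 were found, each in 1 row. Endothelial cells were isolated from C57Bl/6 mice carrying tie2-cre, a Cre recombinase driven by the Tie2 promoter, which is active in endothelial and also in blood-forming cells, and the mice had been treated with NeuroD1 or with GFP. Each group is a single library, made per the labels' protocols from 10000 cells pooled from 3 mice by DRUG-seq, a method that tags the 3' end of transcripts. The labels give no vector, dose, time, age or stroke status for these animals.

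FPKM counts fragments relative to the exon length of the gene and the size of the library, and reads were recovered from it with gene lengths. The libraries held 2001426 recovered reads in NeuroD1 and 2011130 in GFP, of which genes above 1000 FPKM took 57.4% and 52.3%. The 10 genes rest on 27 to 202 reads each in NeuroD1 and 21 to 240 in GFP. Neurod1 stood at 182 FPKM in NeuroD1 and 0.664 FPKM in GFP, on 970 and 4 reads. Receptors for odours, pheromones and taste, which endothelial cells are not known to use, mark the level of scattered reads: the 95th percentile of 1514 such chemoreceptor genes was 4.79 FPKM in NeuroD1 and 4.39 FPKM in GFP. Endothelial markers were present in both libraries: 13 of 15 stood above that percentile in both, and their summed level was 265 FPKM in NeuroD1 and 238 FPKM in GFP. Intervals on levels are exact Poisson and those on ratios exact Clopper-Pearson, all at 95%, and they hold counting error alone. Because neither group was replicated, no difference could be set against the spread between animals and no p-value was computed, and fewer cells of a type and less RNA per cell cannot be told apart.

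The promoters of 4 of the genes are printed below, from RefSeq on GRCm38.p6, from 250 bases before the start of transcription to 50 after it. Smad6, Id2 and Tgfbr1 are shown because they had the clearest differences between the libraries. Eng is shown because it alone of the 7 genes whose promoters were searched held CAGATG, an E-box of the kind that NeuroD1 with an E protein binds. The promoters of Acvrl1, Smad7 and Id1 were not searched. Capitals mark each CANNTG, the general E-box of bHLH factors, and each GGCGCC, a GC-rich element known from BMP-responsive enhancers of Id1.
Smad6: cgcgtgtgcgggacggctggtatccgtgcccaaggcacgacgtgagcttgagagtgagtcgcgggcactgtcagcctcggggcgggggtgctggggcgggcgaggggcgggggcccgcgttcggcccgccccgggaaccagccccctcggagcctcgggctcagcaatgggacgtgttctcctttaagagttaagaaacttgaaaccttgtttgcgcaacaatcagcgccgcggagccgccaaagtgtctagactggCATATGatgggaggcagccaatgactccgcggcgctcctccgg
Id2: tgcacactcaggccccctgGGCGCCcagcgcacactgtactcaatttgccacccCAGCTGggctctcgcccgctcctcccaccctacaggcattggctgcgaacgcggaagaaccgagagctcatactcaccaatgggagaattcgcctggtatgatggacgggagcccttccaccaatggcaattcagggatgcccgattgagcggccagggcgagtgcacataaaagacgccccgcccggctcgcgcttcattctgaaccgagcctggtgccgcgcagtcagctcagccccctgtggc
Tgfbr1: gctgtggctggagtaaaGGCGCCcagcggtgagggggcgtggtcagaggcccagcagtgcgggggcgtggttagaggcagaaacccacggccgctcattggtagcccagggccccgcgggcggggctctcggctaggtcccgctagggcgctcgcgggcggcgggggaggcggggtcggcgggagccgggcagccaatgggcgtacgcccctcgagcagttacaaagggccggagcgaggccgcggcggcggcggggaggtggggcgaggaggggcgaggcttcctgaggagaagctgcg
Eng: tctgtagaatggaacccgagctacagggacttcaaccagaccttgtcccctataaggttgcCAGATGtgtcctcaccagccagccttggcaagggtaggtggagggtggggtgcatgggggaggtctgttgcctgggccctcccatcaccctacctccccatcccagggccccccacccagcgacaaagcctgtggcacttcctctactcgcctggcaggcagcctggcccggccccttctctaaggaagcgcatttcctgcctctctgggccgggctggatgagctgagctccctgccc
These windows lie at chr9:64022010-64022309 on the minus strand for Smad6, chr12:25096043-25096342 on the minus strand for Id2, chr4:47352972-47353271 on the plus strand for Tgfbr1 (the first of its starts) and chr2:32646345-32646644 on the plus strand for Eng. Each motif was searched on both strands. The general E-box was found once each in the Smad6, Id2 and Eng windows, and it was not found in the Tgfbr1 window. GGCGCC was found once each in Id2 and Tgfbr1. Of all 32851 promoters in the table, 72.3% hold the general E-box, 17.2% the form seen in Eng, which is one kind of general E-box, and 11.9% the GC-rich element. Among the 7 genes searched, the first promoter of 4 held the general E-box, of 1 the form seen in Eng and of 3 the GC-rich element. A further motif, CAGAC, the short element bound by SMAD3 and SMAD4, was in 3 of the 7 and in 49.6% of all promoters. A match is a string of letters and not a measured site.

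As a set the 10 genes were evenly split: 5 were above 0 and 5 below 0 in log2(FPKM + 1) of NeuroD1 minus GFP, with a median of -0.021. The median was 0.044 for the 6408 protein-coding genes and 0.030 for all 14679 genes of at least 5 FPKM in 1 library or both. Of the 10, 8 reached that minimum and 0 were 2-fold higher or lower, meaning a difference of 1 or more on that scale, which understates the change of low genes. Among protein-coding genes 3.25% were 2-fold higher and 3.31% lower, 6.55% in all, and among all genes 28.5% were past 2-fold. By the interval of the FPKM ratio, Smad6 and Id2 lay above 1 and Tgfbr1 below it, which is 3 of 10. The background for this count, over protein-coding genes with 20 or more reads in both libraries together, is 12.1%, of which 5.93 points lay above 1 and 6.22 points below it. In the range of reads of the 10 genes the share was 12.9%. Among the 652 chemoreceptor genes with 20 or more reads, which mark scattered reads, it was 10.7%. Over protein-coding genes with 20 or more reads, the variance between the libraries came to 1.76 times that of counting. With intervals widened by that factor, those of Smad6 and Id2 still excluded 1 and that of Tgfbr1 did not, against 3.85% of protein-coding genes.

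**Figure D1:**
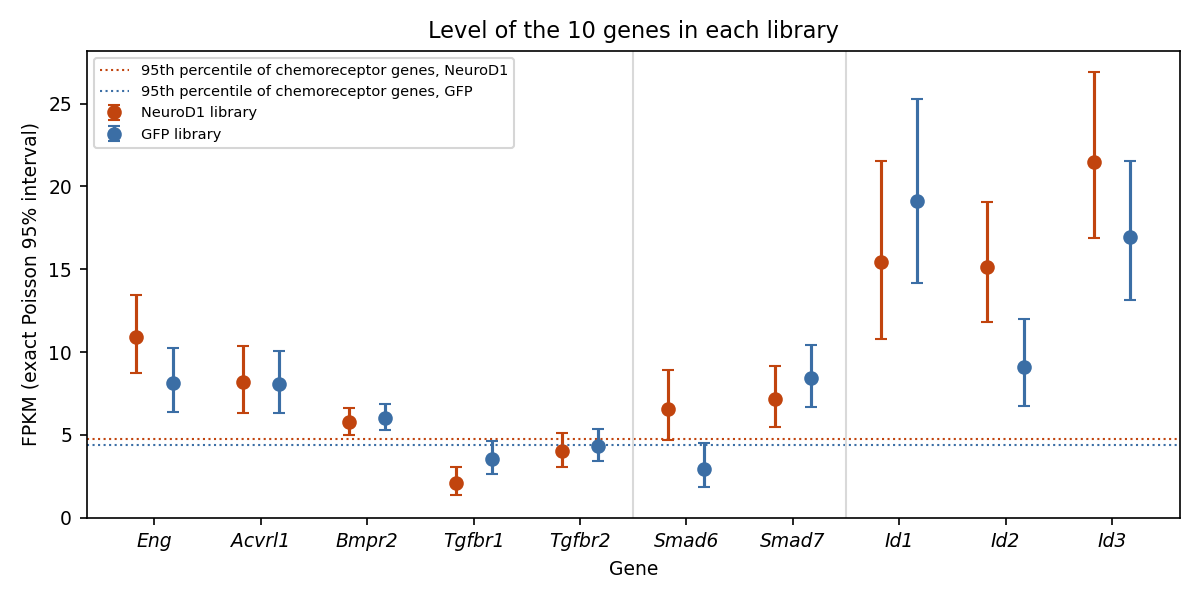
FPKM of each gene in the NeuroD1 library (left of each pair) and the GFP library (right), with exact Poisson 95% intervals, receptors first, then inhibitory SMADs, then ID genes. Dotted lines mark the 95th percentile of chemoreceptor genes in each library, 4.79 FPKM in NeuroD1 and 4.39 FPKM in GFP. Tgfbr1 and Tgfbr2 lie below their line in both libraries and Smad6 only in GFP.

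**Figure D2:**
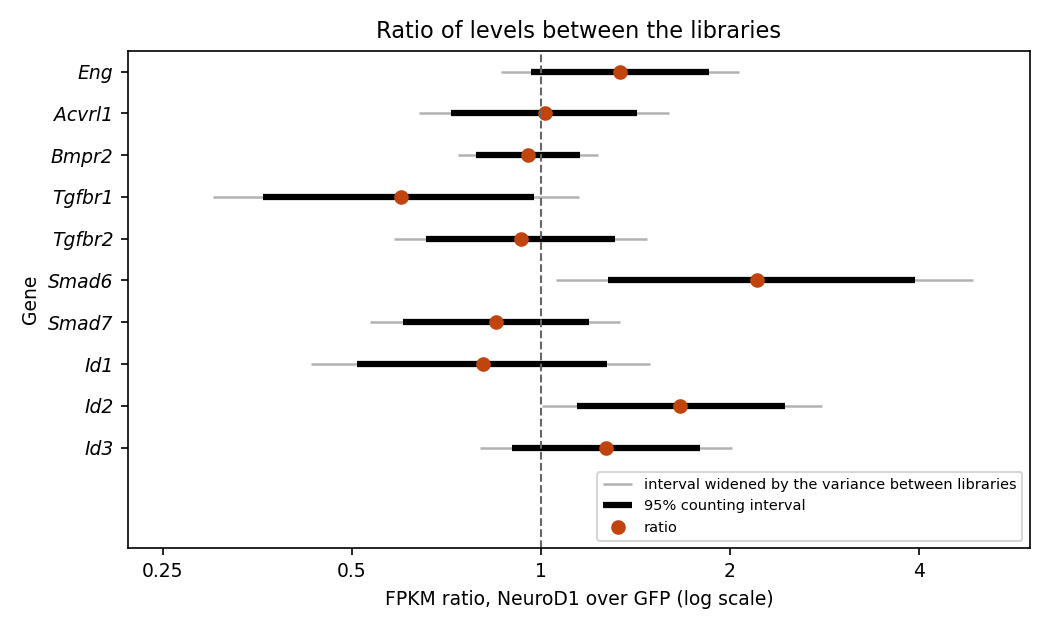
FPKM ratio of NeuroD1 over GFP for each gene on a log scale, with the 95% counting interval as a thick bar and the interval widened by the variance between the libraries as a thin line. The thick bars of Smad6 and Id2 lie above 1 and that of Tgfbr1 below it, and the thin lines of Smad6 and Id2 also stay above 1.

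Among the receptors, those of the BMP arm were all expressed above the chemoreceptor range and none had a ratio interval that excluded 1. Eng (ENSMUSG00000026814, GRCm38 chromosome 2, 32646595 to 32682669), the co-receptor for BMP ligands of the blood, stood at 10.9 FPKM (interval 8.71 to 13.5) in NeuroD1 and 8.16 FPKM (6.40 to 10.3) in GFP. The Eng ratio was 1.33 (0.965 to 1.85), the highest of the receptors, with 86 reads in NeuroD1 and 73 in GFP. Protein-coding genes of 5 to 10 FPKM had a median difference of 0.033, with 53.9% above 0, and the difference of Eng was 0.38. Exons of Eng and of Fpgs, a folate enzyme gene on the opposite strand, share 61 bases, and reads there cannot be told apart unless strand was used in counting. Fpgs stood at 5.26 FPKM in NeuroD1 and 6.55 FPKM in GFP.

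Acvrl1 (ENSMUSG00000000530, chromosome 15, 101128522 to 101145336), the type I receptor of endothelial BMP signalling, stood at 8.18 FPKM (6.35 to 10.4) in NeuroD1 and 8.07 FPKM (6.36 to 10.1) in GFP. Its ratio of 1.01 (0.720 to 1.42) was the closest to 1 of the 10 genes. It shares 127 exon bases with the antisense gene Gm16031, at 0 FPKM in NeuroD1 and 5.05 FPKM in GFP. Bmpr2 (ENSMUSG00000067336, chromosome 1, 59763400 to 59879014), the type II partner, stood at 5.76 FPKM (4.99 to 6.61) in NeuroD1 and 6.04 FPKM (5.30 to 6.86) in GFP. With 202 reads in NeuroD1 and 240 in GFP it was the most deeply counted of the set, and its ratio of 0.953 has the narrowest interval (0.787 to 1.15), which leaves out a 2-fold change in either direction as far as counting error goes.

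By FPKM the TGF-beta receptors were the lowest of the receptors, with values under the chemoreceptor 95th percentile in both libraries. Both are long, with 6534 exon bases in Tgfbr1 and 8187 in Tgfbr2, and FPKM places long genes low where a 3' tag method counts each transcript once. The part of length and of low expression in their place in that range was not tested. Tgfbr2 (ENSMUSG00000032440, chromosome 9, 116084293 to 116175360), the type II receptor that binds the ligand, stood at 4.01 FPKM (3.09 to 5.12) in NeuroD1 and 4.31 FPKM (3.41 to 5.38) in GFP, a ratio of 0.929 (0.657 to 1.31). Tgfbr1 (ENSMUSG00000007613, chromosome 4, 47353222 to 47414931), the type I kinase ALK5, was lower in NeuroD1, at 2.12 FPKM (1.40 to 3.08) on 27 reads, against 3.53 FPKM (2.63 to 4.65) on 51 reads in GFP. The Tgfbr1 ratio was 0.600 (0.362 to 0.974), and its interval widened by the variance between the libraries was 0.301 to 1.15. Over the exon length of Tgfbr1, the median chemoreceptor level comes to 17.9 reads in NeuroD1 and 22.3 reads in GFP. Over that of Tgfbr2 it comes to 22.4 and 27.9 reads, beside 64 and 78 reads of the gene itself. How much of the reads of either gene is scattered reads of this kind was not tested.

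The 2 inhibitory SMADs differed from each other. Smad6 (ENSMUSG00000036867, chromosome 9, 63953076 to 64022059), which mainly restrains BMP receptors, stood at 6.56 FPKM (4.71 to 8.90) in NeuroD1 on 41 reads, against 2.97 FPKM (1.84 to 4.53) in GFP on 21 reads. Its ratio of 2.21 (1.28 to 3.94) was the highest of the set, and the log2(FPKM + 1) difference of 0.93 was just short of the 2-fold threshold. In NeuroD1 it lay above the 95th percentile of chemoreceptor genes and in GFP below it. The chemoreceptor median corresponds to 8.78 reads in NeuroD1 and 10.9 reads in GFP for a gene of its length. With a pseudocount of 0.1 in place of 1, or with the chemoreceptor median subtracted, Smad6 passed the 2-fold threshold. Under these settings 9.55% and 11.5% of protein-coding genes passed it in either direction, against 6.55% under the main setting.

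Smad7 (ENSMUSG00000025880), which restrains both TGF-beta and BMP receptors, stood at 7.15 FPKM (5.49 to 9.14) in NeuroD1 and 8.41 FPKM (6.71 to 10.4) in GFP, on 63 and 84 reads. The Smad7 ratio of 0.849 has an interval of 0.603 to 1.19 that holds 1. The level of Smad6 relative to Smad7 was 0.918 in NeuroD1 and 0.353 in GFP. That ratio was therefore 2.60 times as high in NeuroD1 (interval 1.35 to 5.104, or 1.08 to 6.36 when widened by the variance between the libraries), a value that does not depend on how the libraries were scaled to each other.

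By FPKM the ID genes were the highest of the set in NeuroD1, and in GFP as well, where Id2 was close to Smad7. They are short, and FPKM places short genes high where a 3' tag method counts each transcript once. The part of length and of expression in their place was not tested. By reads Bmpr2 was the highest, with 202 in NeuroD1 and 240 in GFP. Id2 (ENSMUSG00000020644, chromosome 12, 25093799 to 25097140) was higher in NeuroD1, at 15.1 FPKM (11.8 to 19.1) on 72 reads, against 9.10 FPKM (6.73 to 12.03) on 49 reads in GFP. The Id2 ratio was 1.66 (1.14 to 2.44), and its interval widened by the variance between the libraries was 1.003 to 2.80. Id1 (ENSMUSG00000042745, chromosome 2, 152736251 to 152737410), the ID gene most used as a readout of BMP signalling, was not higher, at 15.5 FPKM (10.8 to 21.5) in NeuroD1 and 19.1 FPKM (14.1 to 25.3) in GFP. The Id1 ratio of 0.809 (0.509 to 1.27) rests on 35 reads in NeuroD1 and 49 in GFP, and its interval holds 1. Id3 (ENSMUSG00000007872, chromosome 4, 136143497 to 136145755), a second BMP-induced ID gene, stood at 21.5 FPKM (16.9 to 26.9) in NeuroD1 and 16.9 FPKM (13.1 to 21.5) in GFP, a ratio of 1.27 (0.900 to 1.79).

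Together the 3 ID genes summed to 52.1 FPKM in NeuroD1 and 45.2 FPKM in GFP, on 182 and 165 reads. Protein-coding genes of 10 to 20 FPKM, the range of Id1, Id2 and Id3 by mean level, had a median difference of 0.12, with 65.2% above 0. Within the family, Id2 relative to Id1 was 0.979 in NeuroD1 and 0.476 in GFP, a change of 2.06 times (interval 1.12 to 3.77), and the widened interval of 0.924 to 4.59 holds 1. Id3 relative to Id1 was 1.39 in NeuroD1 and 0.886 in GFP, a change of 1.57 times whose interval of 0.878 to 2.81 holds 1. Id2 relative to Id3 changed by 1.31 times (0.781 to 2.21). The 7 pairs plotted were chosen with the values known. Both whose counting interval leaves out 1 hold Smad6 or Id2, whose own intervals already did, and no share over other pairs of genes was computed.

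**Figure D3:**
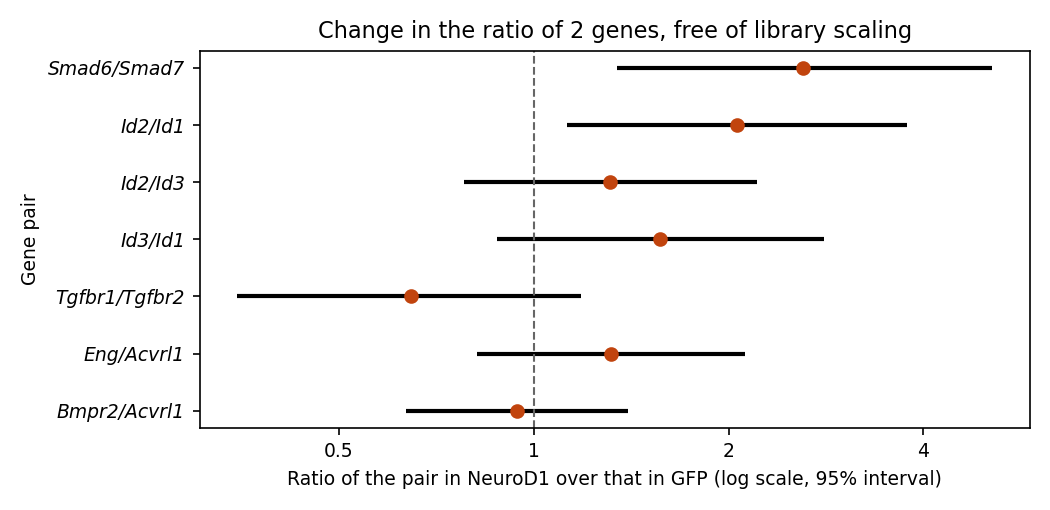
For 7 pairs of genes, the ratio of the first to the second gene in NeuroD1 divided by the same ratio in GFP, on a log scale, with exact conditional 95% intervals for counting error alone. Smad6 over Smad7, at 2.60, and Id2 over Id1, at 2.06, lie above 1 with their whole intervals, and the other 5 intervals hold 1.

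Ordered by level, the set ran in NeuroD1 from Id3 through Id1, Id2, Eng, Acvrl1, Smad7, Smad6, Bmpr2 and Tgfbr2 down to Tgfbr1. In GFP it ran from Id1 through Id3, Id2, Smad7, Eng, Acvrl1, Bmpr2, Tgfbr2 and Tgfbr1 down to Smad6. Of the 9 neighbouring pairs in each order, 3 in NeuroD1 (Id2 over Eng, Bmpr2 over Tgfbr2, Tgfbr2 over Tgfbr1) and 3 in GFP (Id3 over Id2, Acvrl1 over Bmpr2, Bmpr2 over Tgfbr2) differed beyond their counting intervals. The lowest place was held by Tgfbr1 in NeuroD1 and by Smad6 in GFP. With 2 libraries each gene has a single difference, so no other gene was ranked by likeness of pattern. FPKM divides by exon length, whereas a 3' tag method counts transcripts whatever their length, so levels of genes of unlike length, such as Id1 with 1160 exon bases and Bmpr2 with 17983, are not on 1 footing.

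The other genes of the pathway were read in 7 lists of 107 genes, of which 105 reached 1 FPKM in 1 library or both. Of 74 with at least 20 reads, 7 had a ratio interval above 1 and 5 below 1, or 16.2%, against the 12.1% of protein-coding genes. Without Neurod1, the gene of the treatment, 11 of 73 had such an interval, or 15.1%, with 6 above 1. Past 2-fold were 2 genes higher, Neurod1 being 1 of them, and 2 lower, and among protein-coding genes of at least 1 FPKM 2.62% were higher and 3.84% lower.

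**Figure D4:**
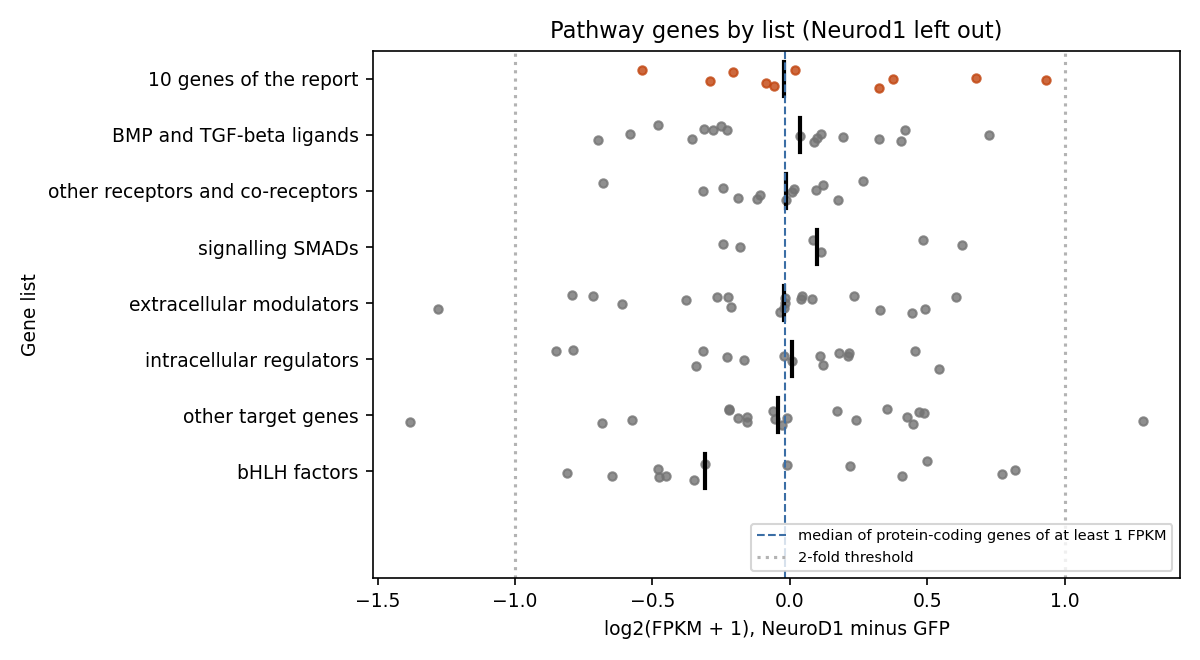
log2(FPKM + 1) of NeuroD1 minus GFP for the 10 genes and for each pathway list, 1 point per gene of at least 1 FPKM in 1 library or both, spread vertically at random, with a black bar at the list median. Neurod1, at 6.78, is left out. The list medians other than that of the bHLH factors lie near the median of protein-coding genes, the dashed line at -0.016, and 3 points lie past the dotted 2-fold lines.

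Of 17 ligands, the secreted factors that start the signal, 9 were above 0 and 8 below 0, with a median of 0.039. Tgfb1, the main TGF-beta ligand, stood at 7.22 FPKM in NeuroD1 and 6.20 FPKM in GFP (ratio 1.17, interval 0.825 to 1.65), and Tgfb2 at 4.78 and 6.18 FPKM (interval 0.537 to 1.11). Gdf11, a ligand of the activin type, was the only ligand with at least 20 reads whose interval excluded 1, at 2.78 FPKM in NeuroD1 and 5.13 FPKM in GFP (ratio 0.542, interval 0.310 to 0.919). Of 13 other receptors and co-receptors, 6 were above 0 and 7 below 0, with a median of -0.014, and 0 of 9 with enough reads had an interval that excluded 1. The highest were Amhr2, at 9.73 FPKM in NeuroD1 and 9.04 FPKM in GFP, and the BMP co-receptor Rgmb, at 9.35 and 9.28 FPKM, neither with recovered reads.

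The 6 SMADs that carry the signal had a median of 0.10, with 4 above 0. Smad3, which carries the TGF-beta signal, was higher in NeuroD1, at 5.46 FPKM against 3.19 FPKM in GFP (59 and 39 reads, ratio 1.71, interval 1.12 to 2.64). Smad4, the partner shared by both arms, had 7.74 FPKM in NeuroD1 and 5.24 FPKM in GFP (ratio 1.48, interval 0.974 to 2.25). Smad1, of the BMP arm, had 5.81 and 5.42 FPKM (ratio 1.07, interval 0.764 to 1.504). Smad3 in GFP lay within the chemoreceptor range.

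Among 20 extracellular modulators the median was -0.020. Fstl3, a secreted antagonist of activin, was past 2-fold lower, at 1.47 FPKM in NeuroD1 and 4.999 FPKM in GFP, on 7 and 27 reads (ratio 0.294, interval 0.108 to 0.691). Chrdl1, a BMP antagonist, was higher, at 1.75 FPKM against 0.804 FPKM in GFP (23 and 12 reads, ratio 2.17, interval 1.04 to 4.79), with both values in the chemoreceptor range. The most abundant, Ltbp4, which binds latent TGF-beta, and Bmper, a BMP modulator made by endothelial cells, had intervals that hold 1, with ratios of 0.816 and 0.971.

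Of 15 intracellular regulators, whose median was 0.008, the intervals of 2 lay above 1 and of 2 below. Usp15, a deubiquitinase that acts on receptor complexes, stood at 3.95 FPKM in NeuroD1 and 2.40 FPKM in GFP (128 and 88 reads, ratio 1.65, interval 1.25 to 2.19), with both values in the chemoreceptor range. Smurf2, a ubiquitin ligase that SMAD7 brings to receptors, stood at 7.32 and 5.07 FPKM (88 and 69 reads, ratio 1.44, interval 1.04 to 2.01). Pmepa1, a TGF-beta-induced inhibitor of SMAD2 and SMAD3, was lower, at 2.09 FPKM in NeuroD1 and 4.33 FPKM in GFP (20 and 47 reads, ratio 0.482, interval 0.271 to 0.829), again with both values in that range. Tgif1, a co-repressor of SMAD2 and SMAD3, was also lower, at 2.01 and 4.43 FPKM (22 and 55 reads, ratio 0.453, interval 0.263 to 0.755). Nedd4l, the most abundant of the list, had no recovered reads.

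Other target genes, 20 of 21 of them at 1 FPKM or more, had a median of -0.042, with 8 above 0 and 12 below. Tmem100, which BMP ligands induce in endothelium through ALK1, was past 2-fold lower, at 1.74 FPKM in NeuroD1 and 6.15 FPKM in GFP (6 and 24 reads, ratio 0.283, interval 0.0947 to 0.711). The Tmem100 value in NeuroD1 lay in the chemoreceptor range. Its difference was opposite in sign to those of Smad6, Id2 and Id3, and the same in sign as those of Smad7 and Id1. Snai1, a repressor of epithelial and endothelial junction genes, was past 2-fold higher, at 3.48 FPKM against 0.838 FPKM in GFP, on only 11 and 3 reads (ratio 4.15, interval 1.10 to 23.2) and with both values in the chemoreceptor range. Hes1, a repressor of the bHLH family, stood at 12.6 FPKM in NeuroD1 and 12.7 FPKM in GFP (ratio 0.994, interval 0.666 to 1.48), and Cdkn1a, a cell cycle inhibitor, at 24.9 and 26.1 FPKM with no recovered reads.

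The E proteins are the partners that ID proteins take up. Tcf12 was higher in NeuroD1, at 8.98 FPKM against 6.53 FPKM in GFP (272 and 224 reads, ratio 1.38, interval 1.15 to 1.65). Tcf4 had 9.87 and 8.33 FPKM (527 and 504 reads, ratio 1.18, interval 1.05 to 1.34). The lower bound of Tcf4 is under 1.13, the factor of the authors' scaling, without which its interval would hold 1. Tcf3, outside the naming rule and named to complete the family, stood at 4.32 FPKM in NeuroD1 and 6.39 FPKM in GFP (34 and 57 reads, ratio 0.676, interval 0.428 to 1.05). Summed over the family, E proteins stood at 23.2 FPKM in NeuroD1 and 21.3 FPKM in GFP. Of the other bHLH factors in the list, only Neurod1 had an interval that excluded 1, with a ratio of 275 (107 to 1010). Without Neurod1, the 13 bHLH factors at 1 FPKM or more had a median of -0.31. Of the 15 listed, only 3 lay above the chemoreceptor 95th percentile in both libraries. Of 10 with at least 20 reads, 0 had an interval below 1.

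Markers of other cell types were measured beside these values, since Id2, Id1, Id3 and the TGF-beta receptors are not specific to endothelium. Summed levels in NeuroD1 and in GFP were 35.2 and 40.3 FPKM for 12 pericyte and smooth muscle markers, 44.1 and 48.7 FPKM for 12 microglial markers, 30.7 and 31.4 FPKM for 10 astrocyte markers, 67.0 and 54.8 FPKM for 11 neuron markers, and 30.2 and 30.2 FPKM for 10 markers of the oligodendrocyte lineage. None of these markers was at 0 in either library. Of the pericyte, microglial, neuron and oligodendrocyte lists 2 members each, and of the astrocyte list 0, lay above the chemoreceptor 95th percentile in both libraries. For neurons these were Rbfox3, at 31.0 FPKM in NeuroD1 and 26.8 FPKM in GFP, and Tubb3, at 12.4 and 8.97 FPKM. Most of the neuron sums came from these 2 genes. Within the sums of all lists the markers moved unevenly. Microglial markers had a median difference of -0.30, with 2 of 12 above 0 and 10 below, and of 7 ratio intervals 1 lay below 1. Pericyte and smooth muscle markers had a median of -0.20, with 3 of 11 above 0 and 8 below, and of 8 intervals 2 lay below 1. Tyrobp, an adaptor of microglial receptors, at 17.7 FPKM in NeuroD1 and 11.5 FPKM in GFP, ran against the median of its list, as did Acta2, smooth muscle actin, at 10.9 and 7.63 FPKM (both picked once their values were known). For neuron markers the median was 0.31, with 7 of 11 above 0 and 2 of 11 intervals above 1. Astrocyte markers had a median of -0.023, with 1 of 9 intervals above 1 and 1 below, and oligodendrocyte lineage markers one of 0.038, with 0 of 7 intervals that left out 1. Endothelial markers had a median of 0.16, with 10 of 15 above 0, and 5 of 14 intervals lay above 1 and 0 below. The background for these counts is 5.93% of protein-coding genes above 1 and 6.22% below. That background does not match the level of the markers. Protein-coding genes had median differences of 0.033, 0.12 and 0.23 at 5 to 10, 10 to 20 and 20 to 50 FPKM. Of the endothelial and neuron intervals above 1, only those of Egfl7 and Snhg11 had a lower bound above 1.13, the factor of the authors' scaling. The part of these cell types in the differences of Smad6, Id2 and Tgfbr1 was not tested.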

How the data were processed

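Expression was measured in 2 libraries of isolated endothelial cells, NeuroD1 and GFP, 1 each. The authors deposited 1 table of FPKM values for 53465 Ensembl genes. Per the submitters' processing notes, the tools were featureCounts 1.6.3, Bowtie2 2.3.5.1 and DESeq, whose version is not stated, with the GRCm38 build. No source used here says how strand, multiply mapped reads or molecular identifiers were treated.

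Reads were recovered by multiplying FPKM by merged exon length in GENCODE M21 (GRCm38) and dividing by the step of 1 read in each library. Whole reads within 0.02 came out in both libraries for 51162 genes (95.7%), all 10 genes of the set included. Of protein-coding genes above 0 in both libraries, whole reads came out for 52.3% of 3623 on chromosomes 15 to 19 and 99.0% of 17323 on all others, and the cause was not tested. Genes said to have no recovered reads are those without whole reads, and they are in neither the read totals nor the background shares of intervals. The steps had a ratio of 1.13 (NeuroD1 over GFP), by which read ratios were multiplied to give FPKM ratios, so the scaling between libraries is the authors'. An interval above 1 with a lower bound under 1.13 would hold 1 without that factor. Among the pathway lists this applies to Smad3, Chrdl1, Smurf2, Snai1 and Tcf4.

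Differences are log2(FPKM + 1), NeuroD1 minus GFP. The factor for widened intervals is the median squared deviation over protein-coding genes with 20 or more reads, divided by its expectation from counting. It replaced a mean after the data were seen, because the mean rested on a few very abundant genes. Named are the 10 genes, Neurod1 and, of each pathway list, genes whose interval excludes 1 and the 2 of highest mean FPKM. Members and lists were chosen with earlier results of these data known. The steps were tested on simulated data. Values were computed in Python 3.11.15 with pandas 2.3.3, scipy 1.17.1 and numpy 2.4.6 and drawn with matplotlib 3.10.9.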

Additional observations from a re-analysis of the deposited data

How the results depend on the processing

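No paired analysis was possible because neither group is replicated, and for the same reason no library could be left out. Eng, Smad6, Id2 and Id3 were above 0 and Bmpr2, Tgfbr1, Tgfbr2, Smad7 and Id1 below 0 under all 10 settings of pseudocount, minimum, scaling and background. Acvrl1 ranged from -0.19 to 0.047 and was above 0 under 8 of them. Of 90 differences of single genes under other settings, all stayed within the counting interval of the gene, but those under other minimums repeat the main values. A minimum cannot change a difference and a pseudocount cannot change its sign. Only the settings of scaling and background could therefore move a sign. Where the 2 columns were set to an equal sum of FPKM, the median of the 10 genes was -0.23. The number 2-fold higher was 1, Smad6, with a pseudocount of 0.1 and with the chemoreceptor median subtracted. At a minimum of 20 FPKM 1 gene of the set was left. The share of protein-coding genes past 2-fold, 6.55%, was 1.44% with a pseudocount of 5 and 0.904% at 5 FPKM in both libraries. It was 9.55% with a pseudocount of 0.1 and 11.5% with the chemoreceptor median subtracted. The share of all genes, 28.5%, was 16.7% with a pseudocount of 5, 6.01% at 5 FPKM in both and 19.7% with no minimum. That share rose to 33.2% with a pseudocount of 0.1, 39.1% at a minimum of 20 FPKM and 38.8% with the chemoreceptor median subtracted. A pseudocount of 5 shrinks every difference, and a minimum in both libraries drops genes that passed through 1 library alone. Both shares therefore change by construction under these settings. With reads divided by the sum of recovered reads, intervals of the same 3 genes and of 15.1% of protein-coding genes excluded 1. Id2 then had 1.01 to 2.17. Widened intervals left 2, and 3.85% of protein-coding genes, and of the 2 pairs of genes whose interval excluded 1 they left 1. The cause of the shifts with the chemoreceptor median subtracted was not tested. The share in the read range of the 10 genes, 12.9%, was chosen after seeing the data.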

Other observations

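Amhr2, the receptor for anti-Mullerian hormone, which is known from gonads and not from endothelium, had the highest FPKM of the 13 other receptors, at 9.73 FPKM in NeuroD1 and 9.04 FPKM in GFP. That is above Acvrl1, at 8.18 FPKM in NeuroD1 and 8.07 FPKM in GFP, and above the chemoreceptor 95th percentile in both libraries. Its reads were not recovered, so its depth is unknown here.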
